A study of Mus musculus with 6 samples.

Results

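The genes described here are 10 collagen genes of the mouse liver, taken by their symbols from a gene table of 24532 genes. They are Col1a1 and Col1a2 (type I), Col3a1 (type III), Col5a1 and Col5a2 (type V), Col6a1, Col6a2 and Col6a3 (type VI), Col12a1 (type XII) and Col14a1 (type XIV). All 10 were found and all 10 passed the filter on low counts. Types I, III and V form fibrils and type VI forms beaded filaments, whereas types XII and XIV are neither and sit on the surface of fibrils. Liver mRNA came from 6 wild-type C57BL/6 mice, all fed 0.1% DDC for 4 weeks, a chemical diet that injures bile ducts and leads to scarring around them. During the final 2 weeks 3 mice received recombinant human cytoglobin (rhCYGB) at 2 mg/kg, given 2 times a week, and 3 received normal saline (vehicle). Tissue was collected 2 days after the final dose. All 6 mice were injured, so no uninjured level is given.

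Collagens are built from 3 chains wound into a triple helix. Type I collagen usually combines chains of Col1a1 and Col1a2, type III is made of Col3a1 alone, type V of Col5a1 and Col5a2, and type VI of Col6a1, Col6a2 and Col6a3. In scarred liver, types I and III make up most of the added fibrils, type V helps to start them, type VI links fibrils to cells and basement membranes, and types XII and XIV bind fibril surfaces. The main sources are activated hepatic stellate cells and, after bile duct injury, portal fibroblasts. In whole tissue, fewer cells of a type and less RNA per cell cannot be told apart.

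On the authors' build, mm10, some of the genes are neighbours. Col3a1 (gene 12825, chromosome 1, 45311538 to 45349706) and Col5a2 (gene 12832, chromosome 1, 45374331 to 45503282) are 24624 bases apart. Col6a1 (gene 12833, chromosome 10, 76708792 to 76726044) and Col6a2 (gene 12834, chromosome 10, 76595756 to 76623630) are 85161 bases apart. The others are Col1a1 (gene 12842, chromosome 11, 94936224 to 94953042), Col1a2 (gene 12843, chromosome 6, 4505618 to 4541543), Col5a1 (gene 12831, chromosome 2, 27886425 to 28039510), Col6a3 (gene 12835, chromosome 1, 90766860 to 90843971), Col12a1 (gene 12816, chromosome 9, 79598987 to 79718722) and Col14a1 (gene 12818, chromosome 15, 55307750 to 55520803). Of the 10 loci, that of Col1a1 alone overlapped another gene of the transcript table, the microRNA gene Mir684-1. The longest listed transcripts ran from 3976 bases for Col6a1 to 11719 bases for Col12a1, with a median of 6189 bases, against 2814 bases over all genes tested.

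The promoters of 4 of the 10 genes are shown as background, and their part in the collagen values was not tested. Each is the 250 bases before the gene's start, from RefSeq on GRCm38.p6, written 5′ to 3′ along the gene. RefSeq promoters were matched for 6 of the 10 genes, and those of Col1a1, Col5a2, Col12a1 and Col14a1 were not matched. Positions are chr1:45311288-45311537 (plus strand) for Col3a1, chr6:4505368-4505617 (plus strand) for Col1a2, chr2:27886175-27886424 (plus strand) for Col5a1 and chr10:76726045-76726294 (minus strand) for Col6a1. Capitals mark matches on either strand to TATAAA (bound by the TATA-binding protein), to CCAAT (bound by NF-Y), to GGGCGG (bound by Sp1) or to CAGACA (bound by Smad proteins).
Col3a1: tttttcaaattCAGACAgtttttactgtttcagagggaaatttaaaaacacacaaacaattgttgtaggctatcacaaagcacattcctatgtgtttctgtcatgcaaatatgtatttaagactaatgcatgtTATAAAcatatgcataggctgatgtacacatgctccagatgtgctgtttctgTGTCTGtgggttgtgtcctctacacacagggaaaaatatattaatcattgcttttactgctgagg
Col1a2: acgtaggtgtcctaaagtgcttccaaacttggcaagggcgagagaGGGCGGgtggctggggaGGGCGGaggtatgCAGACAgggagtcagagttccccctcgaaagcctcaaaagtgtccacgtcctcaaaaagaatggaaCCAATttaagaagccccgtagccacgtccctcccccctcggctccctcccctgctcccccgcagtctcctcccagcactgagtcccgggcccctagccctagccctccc
Col5a1: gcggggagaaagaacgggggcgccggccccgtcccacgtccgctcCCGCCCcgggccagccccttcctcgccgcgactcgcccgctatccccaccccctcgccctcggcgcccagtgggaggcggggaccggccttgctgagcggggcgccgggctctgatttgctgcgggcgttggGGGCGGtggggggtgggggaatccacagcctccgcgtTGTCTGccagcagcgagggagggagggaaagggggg
Col6a1: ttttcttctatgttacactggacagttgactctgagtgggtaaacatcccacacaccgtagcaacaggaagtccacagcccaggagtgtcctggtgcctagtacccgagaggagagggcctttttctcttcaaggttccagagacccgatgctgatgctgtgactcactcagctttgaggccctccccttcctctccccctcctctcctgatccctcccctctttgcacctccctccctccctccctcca

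The sequences differed in composition. GC content was 35.2% for Col3a1, 62.0% for Col1a2, 76.4% for Col5a1 and 56.0% for Col6a1, against a median of 52.4% over 32851 RefSeq promoters of the same length. In the Col3a1 promoter TATAAA began 117 bases before the start, and CAGACA was matched at 239 bases and, on the other strand, at 65 bases before it. The Col1a2 promoter held CCAAT at 109 bases, GGGCGG at 205 and 188 bases and CAGACA at 175 bases before the start. In the Col5a1 promoter GGGCGG was matched at 205 bases on the other strand and at 73 bases, and CAGACA at 36 bases on the other strand. The Col6a1 window held none of these letters. Over all 32851 promoters, 12.4% held TATAAA, 33.8% CCAAT, 32.7% GGGCGG and 17.1% CAGACA. Of the 6 matched collagen genes, 1 held TATAAA, 1 CCAAT, 3 GGGCGG and 3 CAGACA. No matches to different motifs overlapped in the sequences shown.

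The libraries held 58422095 to 72431373 estimated counts, of which the 10 collagens together took a share of 0.0606, 0.0423 and 0.00915 in rhCYGB replicates 1 to 3 and 0.123, 0.0986 and 0.0894 in vehicle replicates 1 to 3, in percent. Libraries also differed in ways shared by all genes. TMM factors, which correct for the make-up of a library, ran from 0.630 to 1.18 with rhCYGB and from 1.07 to 1.45 with vehicle. The slope of log2 CPM deviation on log2 transcript length was 0.23, -0.35 and -0.32 in rhCYGB replicates 1 to 3 and 0.40, -0.017 and 0.055 in vehicle replicates 1 to 3. The library of rhCYGB replicate 3 had the fewest genes with a count (14933) and the largest share of the ribosomal RNA gene Rn45s (1.74%, against 0.225% to 0.443% in the other 5). Hepatocyte markers (6 genes, Alb among them) summed to 112530 to 134522 TPM with rhCYGB and 111986 to 126580 TPM with vehicle, high in every library. The labels give no batch.

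All 10 collagen genes had lower values in rhCYGB livers than in vehicle livers by log2 fold change, with a median of -0.93 (range -1.20 to -0.65), but 0 of 10 passed the test. By edgeR's quasi-likelihood test with Benjamini-Hochberg adjustment over 14415 genes, the smallest adjusted p of a collagen was 0.523, and 0 genes of any kind passed (0.0% of those tested). At an unadjusted p under 0.05, 2 of the 10 were lower, Col6a1 and Col6a2, where 2.06% of all genes tested were. A log2 fold change below 0 was found for 53.2% of all genes, whose median was -0.056. CPM values, counts scaled to library size with TMM, were lower in all rhCYGB libraries than in all vehicle libraries for 9 of the 10, where this held for 7.38% of all genes tested. Col14a1 was the exception. Each of the 10 had its lowest value in rhCYGB replicate 3, the library with the lowest value for 33.5% of all genes tested, and its highest in a vehicle library. The vehicle mean was 3.10-fold to 10.5-fold above rhCYGB replicate 3.

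**Figure D1:**
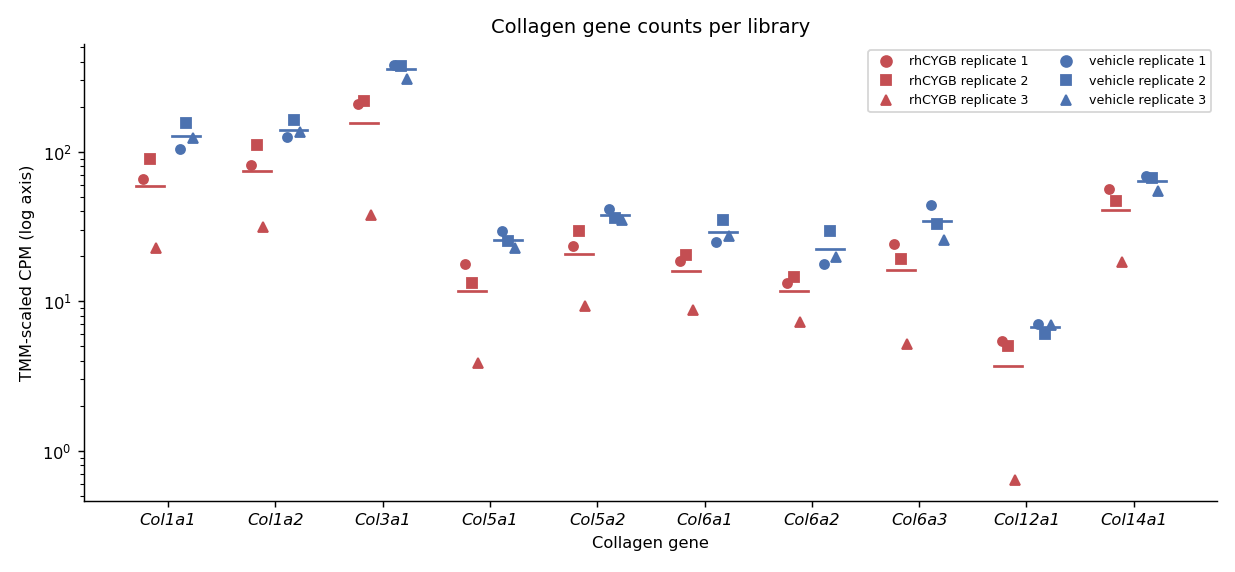
TMM-scaled CPM (log axis) of the 10 collagen genes in each library, with a line at each group mean (n = 3 mice per group). For 9 genes the 3 rhCYGB points lie below the 3 vehicle points, Col14a1 being the exception, and rhCYGB replicate 3 is lowest for each gene.

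Type I collagen, the chief fibril collagen of scars, had its groups apart at both chains. Col1a1, which encodes the alpha 1 chain, was at 65.6, 89.7 and 22.7 CPM in rhCYGB replicates 1 to 3, against 105, 155 and 124 CPM in vehicle replicates 1 to 3. The rhCYGB values were spread widely, with replicate 3 far below the others. Group means were 59.4 ± 34.0 CPM with rhCYGB and 128 ± 25.3 CPM with vehicle (SD, n = 3 each; log2 fold change -1.11, SE 0.48, edgeR adjusted p = 0.523). Col1a2, which encodes the alpha 2 chain, was at 81.9, 111 and 31.6 CPM with rhCYGB, against 125, 162 and 135 CPM with vehicle. The rhCYGB libraries stood in the same order as for Col1a1 (log2 fold change -0.91, SE 0.45, edgeR adjusted p = 0.523).

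Col3a1, the single chain of type III collagen, was at 210.0, 218 and 37.8 CPM in rhCYGB replicates 1 to 3, against 382, 377 and 309 CPM in vehicle replicates 1 to 3. Replicates 1 and 2 with rhCYGB lay close together, and replicate 3 was 9.43-fold below the vehicle mean. All rhCYGB values were below all vehicle values (log2 fold change -1.20, SE 0.61, edgeR adjusted p = 0.523).

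Type V collagen, which nucleates type I fibrils, was represented by 2 chains. Col5a1 was at 17.9, 13.3 and 3.88 CPM with rhCYGB, against 29.6, 25.3 and 22.7 CPM with vehicle. All 3 rhCYGB values were below the lowest vehicle value (log2 fold change -1.15, SE 0.51, edgeR adjusted p = 0.523). Col5a2, whose gene neighbours Col3a1, was at 23.3, 29.7 and 9.30 CPM with rhCYGB, against 41.4, 36.2 and 35.2 CPM with vehicle. The vehicle values were tight and the rhCYGB values were not (log2 fold change -0.85, SE 0.42, edgeR adjusted p = 0.523).

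The type VI chains, which assemble into filaments between cells and fibrils, included the 2 smallest p-values. Col6a1 was at 18.5, 20.5 and 8.69 CPM with rhCYGB, against 25.01, 34.8 and 27.3 CPM with vehicle. The groups were apart, with vehicle replicate 2 above the rest (log2 fold change -0.87, SE 0.36, edgeR adjusted p = 0.523). Col6a2 was at 13.2, 14.5 and 7.25 CPM with rhCYGB, against 17.9, 29.6 and 19.9 CPM with vehicle. Its libraries stood much as those of Col6a1 did (log2 fold change -0.95, SE 0.35, edgeR adjusted p = 0.523). Col6a3, the longest of these chains, was at 24.1, 19.2 and 5.18 CPM with rhCYGB, against 44.2, 32.6 and 25.8 CPM with vehicle. Here vehicle replicate 1 was highest, and vehicle replicate 3 was only slightly above rhCYGB replicate 1 (log2 fold change -1.08, SE 0.54, edgeR adjusted p = 0.523).

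The fibril-surface collagens had the largest p-values of the 10. Col12a1, the rarest and longest, was at 5.42, 4.99 and 0.637 CPM with rhCYGB, against 7.07, 6.04 and 6.93 CPM with vehicle. The value of rhCYGB replicate 3 rested on 24 estimated counts, and the other rhCYGB libraries were just under the vehicle range (log2 fold change -0.85, SE 0.68, edgeR adjusted p = 0.582). Col14a1 was at 56.0, 47.2 and 18.3 CPM with rhCYGB, against 69.2, 66.3 and 54.6 CPM with vehicle. It was the 1 gene whose groups overlapped, since rhCYGB replicate 1 exceeded vehicle replicate 3 (log2 fold change -0.65, SE 0.41, edgeR adjusted p = 0.538).

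Single libraries and tools altered these values. Without rhCYGB replicate 3 the median log2 fold change of the 10 was -0.62, 0 were past the threshold, 2 of 10 had an unadjusted p under 0.05 (1.24% of all genes being lower), and groups did not overlap for 9 of 10 (8.62% of all genes). Without rhCYGB replicate 1 edgeR called 3391 of 14647 genes, 10.5% of those tested being lower and 12.7% higher, but 0 of the 10 collagens (smallest adjusted p = 0.0532). Leaving out any other single library called 0 genes. At an unadjusted p under 0.05, 5 of 10 were lower without rhCYGB replicate 1, against 21.2% of all genes, and without rhCYGB replicate 2 this held for 5 of 10, against 1.25%. Without rhCYGB replicate 1 the groups did not overlap for 10 of 10, against 34.5% of all genes. Limma-voom with sample quality weights called 4323 genes, 13.9% of those tested being lower, and of the collagens Col5a1 alone (log2 fold change -1.05, adjusted p = 0.0312). Its weights were 0.17, 2.60 and 0.47 in rhCYGB replicates 1 to 3 and 0.46, 2.35 and 4.38 in vehicle replicates 1 to 3. The rhCYGB side of that fit thus leaned on replicate 2. DESeq2 called 62 genes, 0.106% of those with an adjusted p being lower, and none of the 10. It gave an adjusted p to only 1890 of the 17475 genes with a p. Of the 10 collagens 7 had none, and the smallest adjusted p of the rest was 0.133. At an unadjusted p under 0.05 by DESeq2, 5 of 10 were lower, against 2.83% of all genes. On TPM, without TMM scaling, limma on log2(TPM + 1) gave a median of -1.46 for the collagens and -0.51 for all genes, a gap of -0.95, against a gap of -0.88 by edgeR. TPM groups did not overlap for 7 of the 10, against 12.7% of all genes. Of genes with an unadjusted p under 0.05, 74.6% were higher by edgeR and 7.25% on log2(TPM + 1).

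Because the libraries differed by transcript length and the collagens are long, each was set beside all tested genes whose longest transcript was within 20% of its own length (271 to 3375 genes). Genes of like length had median log2 fold changes of -0.37 to -0.21. Each of the 10 collagens lay below the lower quartile of its like-length genes, and its log2 fold change minus their median ran from -0.87 to -0.31. Between 5.19% and 24.8% of the like-length genes had lower fold changes than the collagen itself.

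Across libraries the picture was less even. The median collagen deviated from its own mean over the 6 libraries by -0.068, 0.034 and -1.71 in rhCYGB replicates 1 to 3 and 0.59, 0.71 and 0.45 in vehicle replicates 1 to 3, on the log2 CPM scale. Like-length genes deviated by 0.33, -0.41 and -0.41 in rhCYGB replicates 1 to 3 and 0.52, -0.031 and 0.053 in vehicle replicates 1 to 3. After subtraction of the like-length value, the median collagen stood at -0.32, 0.43 and -1.31 in rhCYGB replicates 1 to 3 and 0.034, 0.74 and 0.39 in vehicle replicates 1 to 3. On this scale rhCYGB replicate 2 lay within the vehicle range, rhCYGB replicate 1 under it, and rhCYGB replicate 3 far below all others. Groups then did not overlap for 1 of the 10, Col5a1, where 8.33% of all genes were lower in this way. The difference of rhCYGB minus vehicle had a median of -0.84 (range -1.22 to -0.44). This is a difference between group means of log2 deviations. It is a measure unlike the edgeR log2 fold change, whose median was -0.93, and the 2 do not show how much the subtraction changed. For Col3a1 the subtracted value was -0.62 ± 1.28 with rhCYGB and 0.60 ± 0.25 with vehicle, and for Col6a1 -0.37 ± 0.58 with rhCYGB and 0.36 ± 0.38 with vehicle (SD, n = 3 each). With each library's trend on length removed before the test, the 10 log2 fold changes ran from -0.86 to -0.28 with a median of -0.60, where that of all genes was 0.087. In that edgeR fit 0 of 10 had an unadjusted p under 0.05 (smallest 0.107), against 2.31% of all genes that were lower.

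**Figure D2:**
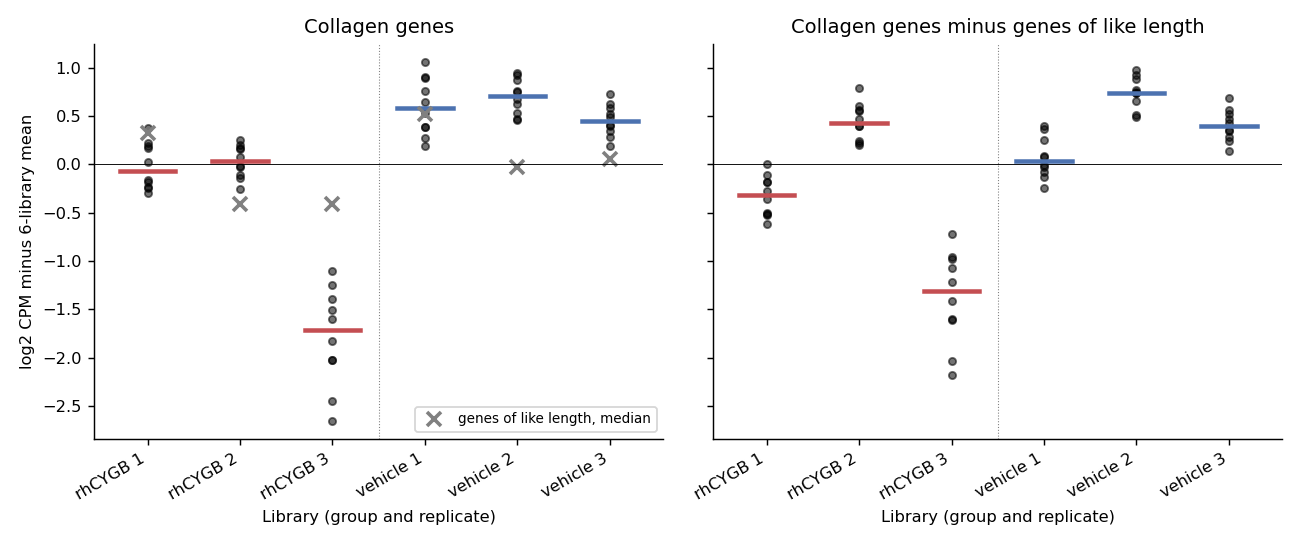
Left, log2 CPM of the 10 collagens minus each gene's mean over 6 libraries, per library, with the values of genes of like length; right, the same after subtraction of the like-length value. The collagen medians at the right are -0.32, 0.43 and -1.31 in rhCYGB replicates 1 to 3 and 0.034, 0.74 and 0.39 in vehicle replicates 1 to 3.

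Levels of different genes were compared per length, in the deposited FPKM. Col3a1 was highest, at 25.7 ± 20.04 FPKM with rhCYGB and 78.1 ± 17.9 FPKM with vehicle. Col1a2 followed at 12.5 ± 7.72 FPKM with rhCYGB and 32.4 ± 2.22 FPKM with vehicle, Col1a1 at 8.79 ± 5.63 FPKM with rhCYGB and 25.7 ± 1.63 FPKM with vehicle, Col14a1 at 5.75 ± 4.19 FPKM with rhCYGB and 12.0 ± 2.94 FPKM with vehicle and Col6a1 at 3.52 ± 2.04 FPKM with rhCYGB and 8.74 ± 0.658 FPKM with vehicle (SD, n = 3 each). Col5a2, Col6a2, Col6a3, Col5a1 and Col12a1 came next in that order, down to 0.295 ± 0.253 FPKM with rhCYGB and 0.698 ± 0.161 FPKM with vehicle for Col12a1. The order of the 10 means was the same in both groups. In rhCYGB livers the ranges of all neighbours in this order overlapped, as all genes were low in rhCYGB replicate 3. Within rhCYGB replicates 1 and 2 the order was nonetheless kept. In rhCYGB replicate 3 it was kept but for Col6a2 (1.19 FPKM), which was above Col5a2 (0.872 FPKM). Within vehicle libraries Col6a3 was above Col6a2 in replicate 1, Col6a2 above Col5a2 in replicate 2 and Col5a1 above Col6a3 in replicate 3. Among vehicle libraries the ranges of neighbours were apart from Col3a1 down to Col6a1 and between Col5a1 and Col12a1, while those of Col6a1, Col5a2, Col6a2, Col6a3 and Col5a1 each overlapped the next.

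The make-up of collagen RNA also varied by library. Col3a1 made up 42.1, 39.2 and 26.1 in rhCYGB replicates 1 to 3 and 46.7, 41.4 and 41.5 in vehicle replicates 1 to 3, in percent of the summed TPM of the 10. Its share was lowest in rhCYGB replicate 3. Col6a1 was at 5.19, 5.15 and 8.39 in rhCYGB replicates 1 to 3 and 4.27, 5.34 and 5.14 in vehicle replicates 1 to 3, and Col6a2 at 3.83, 3.77 and 7.38 in rhCYGB replicates 1 to 3 and 3.09, 4.76 and 3.87 in vehicle replicates 1 to 3, in percent. Both had their largest share in rhCYGB replicate 3, as did Col1a2 (23.3%), Col5a2 (5.40%) and Col14a1. The share of Col14a1 was 9.70, 7.32 and 10.9 in rhCYGB replicates 1 to 3 and 7.29, 6.27 and 6.34 in vehicle replicates 1 to 3, in percent. It was higher in all rhCYGB libraries than in all vehicle libraries, though barely, at 7.32 against 7.29. Groups overlapped for every other share of the 10, and the shares were not tested. The share of Col6a3 was 1.84% in rhCYGB replicate 3, within the range of the other libraries.

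Plain ratios of 2 genes within a library do not depend on how libraries are scaled, but the tested log2 ratios had 0.1 FPKM added to each gene, which weighs on rare genes. For genes of unlike length, ratios and the shares above can still follow the length slopes of the libraries, which ran from -0.35 to 0.40. The part of length in them was not tested. Of 9 pairs compared, the groups were apart for 1, Col1a2 over Col1a1. Its FPKM ratio was 1.42, 1.40 and 1.58 with rhCYGB, against 1.36, 1.19 and 1.23 with vehicle (log2 difference 0.21, two-sided exact permutation p = 0.1, unadjusted). With 3 against 3 mice, 0.1 is the smallest p this test can give, so no pair could pass. The lowest rhCYGB ratio was only slightly above the highest vehicle ratio. Col3a1 over Col1a1 was at 3.41, 2.59 and 1.78 with rhCYGB, against 3.89, 2.59 and 2.65 with vehicle (log2 difference -0.27, two-sided exact permutation p = 0.4). It was high in replicate 1 of either group and lowest in rhCYGB replicate 3.

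Chains of the same collagen type were compared in the same way. Col6a2 over Col6a1 was at 0.739, 0.732 and 0.880 with rhCYGB, against 0.723, 0.890 and 0.753 with vehicle, and the mean log2 ratios were -0.34 ± 0.15 with rhCYGB and -0.34 ± 0.16 with vehicle (SD, n = 3 each; exact permutation p = 1). Col5a2 over Col5a1 was at 1.66, 2.85 and 3.06 with rhCYGB, against 1.77, 1.82 and 1.96 with vehicle (log2 difference 0.29, two-sided exact permutation p = 0.4). Here rhCYGB replicates 2 and 3 were above all vehicle libraries and rhCYGB replicate 1 below them. Col6a3 over Col6a1 was at 0.478, 0.344 and 0.219 with rhCYGB, against 0.771, 0.344 and 0.346 with vehicle (log2 difference -0.33, two-sided exact permutation p = 0.7). Vehicle replicate 1, where the ratio was high, also had an isoform assignment described below. Its gene counts were 3734 for Col6a3 and 2114 for Col6a1. They were 2301 and 2455 in vehicle replicate 2, and 1808 and 1916 in vehicle replicate 3. The high ratio was thus present in gene counts too, and the part of the isoform assignment was not tested. Without vehicle replicate 1 the log2 difference was 0.044.

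Relative to Col1a1, the log2 differences were 0.041 for Col5a1, 0.59 for Col12a1, 0.52 for Col14a1 and 0.37 for Col6a1, with exact permutation p-values of 1, 0.2, 0.2 and 0.2. Groups overlapped for each. For Col12a1 the plain ratio to Col1a1 was 0.0418, 0.0281 and 0.0139 with rhCYGB, against 0.0342, 0.0197 and 0.0282 with vehicle. The log2 difference of the counts of that pair was -0.062. For Col5a1 the plain ratio to Col1a1 was 0.192, 0.104 and 0.120 with rhCYGB, against 0.200, 0.115 and 0.129 with vehicle. The log2 difference of the counts of Col5a1 and Col1a1 was -0.099, opposite in sign to the tested value.

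**Figure D3:**
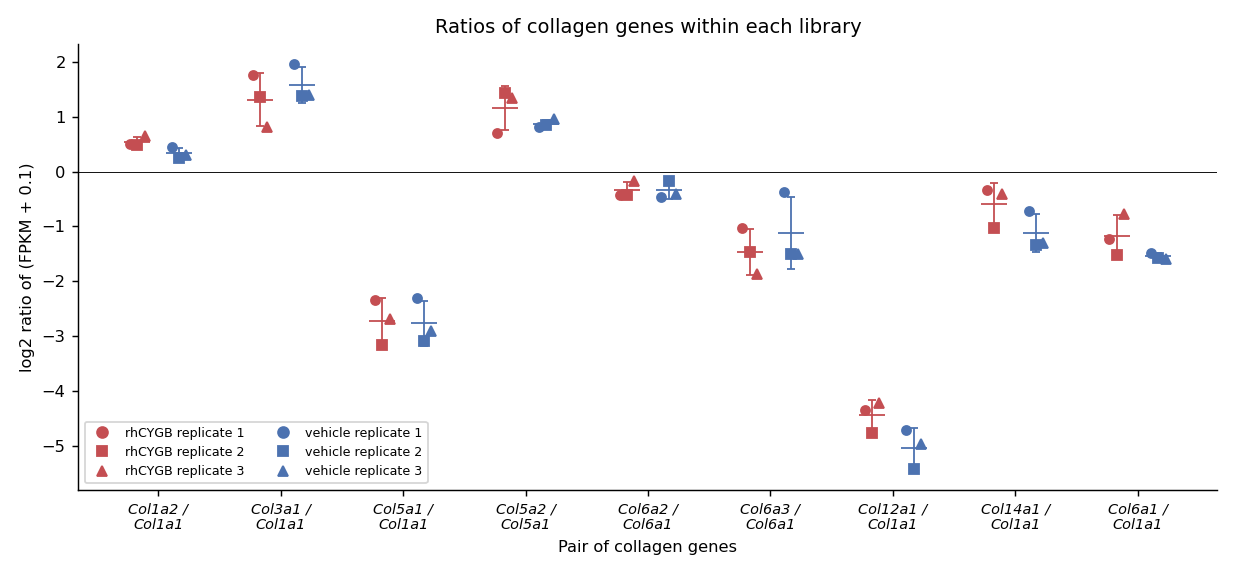
Log2 ratio of (FPKM + 0.1) for 9 pairs of collagen genes in each library, by group (n = 3 mice per group). For Col1a2 over Col1a1 alone do all 3 rhCYGB points (mean 0.54) stand apart from the 3 vehicle points (mean 0.33).

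The 10 genes had 12 listed transcripts, 11 of which were abundant enough to test. By edgeR over 19664 transcripts 0 of the 11 passed (smallest adjusted p = 0.802), as did 0.0% of all transcripts, and all 11 had log2 fold changes below 0. None of the 11 had an unadjusted p under 0.05 (smallest 0.0519), against 1.19% of all transcripts that were lower at that p. Col6a2 had forms of 3729 and 4958 bases. The longer form took 10.8, 11.5 and 5.49 in rhCYGB replicates 1 to 3 and 20.8, 7.66 and 11.5 in vehicle replicates 1 to 3, in percent of the gene's count, and the groups overlapped. In vehicle replicate 1 the Col6a3 form of 9020 bases held 3528 estimated counts and that of 10841 bases 206. In the other 5 libraries the shorter form held 0 and the longer one all of the gene's count, 195 to 2301. The authors' assembler divides reads between such forms, so their shares are uncertain.

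Likeness between genes was measured as the root mean square difference of their log2 CPM deviations over the 6 libraries. Over the 45 pairs of collagens it had a median of 0.357. The closest pairs were Col6a1 with Col6a2 at 0.112, Col5a1 with Col6a3 at 0.128 and Col1a1 with Col1a2 at 0.135, and the most distant was Col6a2 with Col12a1 at 0.768. All pairs share the same libraries and their length trends. Among 11948 tested genes with a mean of at least 1 CPM, the median difference from the mean profile of Col1a1, Col1a2, Col3a1, Col5a1 and Col5a2 was 0.937. Among the closest were B3gnt9 at 0.167, Mmp9 at 0.167, a gelatinase, Ccdc3 at 0.186 and Fscn1 at 0.205, an actin-bundling protein. From the mean profile of the 3 type VI chains, where the median was 0.787, the closest were Smtnl2 at 0.0746, Cnpy4 at 0.0818, Tgfbi at 0.134, a secreted protein that binds collagens, Pea15a at 0.140 and Pilra at 0.155, a receptor of myeloid cells. B3gnt9 was at 1.36 ± 0.744 CPM with rhCYGB and 2.47 ± 0.0913 CPM with vehicle, and Smtnl2 at 1.00 ± 0.461 CPM with rhCYGB and 1.89 ± 0.390 CPM with vehicle (SD, n = 3 each). Such genes were picked for likeness to the collagen profile, its group difference included. Their lower rhCYGB means thus follow from the choice and are no separate result.

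Other collagens were taken as every further collagen symbol of the table. Of 34 listed, 23 were tested and 0 passed by edgeR, with 0 lower and 1 higher at an unadjusted p under 0.05, against 2.06% and 6.06% of all genes. Of those tested, 15 had log2 fold changes below 0 (53.2% of all genes) and 8 above 0, with a median of -0.12, against -0.056 over all genes tested and -0.93 for the 10. Their median length was 6450 bases, and genes of like length to Col14a1 (6448 bases) had a median log2 fold change of -0.34. The part of length in this list was not tested. Col18a1, which encodes the precursor of endostatin, was at 814 ± 268 CPM with rhCYGB and 549 ± 88.9 CPM with vehicle (SD, n = 3 each; log2 fold change 0.57, SE 0.36, edgeR adjusted p = 0.538). Its rhCYGB values were all above its vehicle values, as for 6.02% of all genes, though on log2(TPM + 1) the sign was the opposite, at -0.20. The basement membrane chain Col4a1 was at 56.3 ± 43.1 CPM with rhCYGB and 112 ± 19.4 CPM with vehicle, with groups that overlapped, and Col4a2 at 50.5 ± 11.3 CPM with rhCYGB and 69.7 ± 5.47 CPM with vehicle, with groups apart. Without rhCYGB replicate 1 edgeR called Col4a1 (log2 fold change -1.83, adjusted p = 0.0212), in a fit where 10.5% of all genes were called lower and 12.7% were called higher. Col22a1, named after its value was seen, had the 1 unadjusted p under 0.05, at 0.935 ± 0.545 CPM with rhCYGB and 0.302 ± 0.119 CPM with vehicle, and was called without rhCYGB replicate 1 (log2 fold change 2.02, adjusted p = 0.0445).

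Procollagen chains are hydroxylated and folded before secretion. Of 22 listed, 20 were tested and 0 passed by edgeR, with 3 lower and 0 higher at an unadjusted p under 0.05, against 2.06% and 6.06% of all genes. Of those tested, 16 had log2 fold changes below 0 (53.2% of all genes) and 4 above 0, with a median of -0.20. The 3 lower genes, Serpinh1, P4ha1 and Plod2, are named after their values were seen. Serpinh1 encodes HSP47, the chaperone specific to collagen, and was at 38.2, 14.3 and 15.7 CPM in rhCYGB replicates 1 to 3, against 66.1, 69.3 and 50.9 CPM in vehicle replicates 1 to 3. All its rhCYGB values were below all vehicle values, and unlike the collagens it was lowest in rhCYGB replicate 2 (log2 fold change -1.45, SE 0.42, edgeR adjusted p = 0.523). Without rhCYGB replicate 1 edgeR called it (log2 fold change -2.06, adjusted p = 0.0202), where 10.5% of all genes were called lower and 12.7% were called higher, and with any other library left out its adjusted p was 0.644 or more. P4ha1, a subunit of prolyl 4-hydroxylase, was at 13.2 ± 2.78 CPM with rhCYGB and 23.5 ± 4.21 CPM with vehicle, and Plod2, a lysyl hydroxylase, at 2.14 ± 0.769 CPM with rhCYGB and 4.96 ± 1.21 CPM with vehicle. Plod2 was called without rhCYGB replicate 1 (log2 fold change -1.50, adjusted p = 0.0343). The most abundant genes of the list serve many proteins besides collagen. P4hb was at 1817 ± 194 CPM with rhCYGB and 1782 ± 206 CPM with vehicle, Ppib at 699 ± 367 CPM with rhCYGB and 360.3 ± 100.4 CPM with vehicle and Colgalt1 at 73.6 ± 22.6 CPM with rhCYGB and 95.2 ± 21.8 CPM with vehicle. Ppib was called higher without rhCYGB replicate 1 (log2 fold change 1.33, adjusted p = 0.0302).

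The propeptides are then removed and the chains cross-linked. For propeptide removal, of 8 listed, 6 were tested and 0 passed by edgeR, with 0 lower and 0 higher at an unadjusted p under 0.05, against 2.06% and 6.06% of all genes. Of those tested, 3 had log2 fold changes below 0 (53.2% of all genes) and 3 above 0, with a median of 0.051. Bmp1, which cleaves the C-terminal propeptide, was at 101 ± 30.2 CPM with rhCYGB and 68.8 ± 1.88 CPM with vehicle, with all rhCYGB values above all vehicle values, though its log2 fold change was -0.28 on log2(TPM + 1). Pcolce, its enhancer, was at 20.4 ± 8.75 CPM with rhCYGB and 22.4 ± 6.63 CPM with vehicle, and Adamts2, which removes the N-terminal propeptide, at 11.3 ± 3.29 CPM with rhCYGB and 15.9 ± 3.24 CPM with vehicle. For the lysyl oxidases, which cross-link collagen, of 5 listed, 5 were tested and 0 passed by edgeR, with 0 lower and 0 higher at an unadjusted p under 0.05, against 2.06% and 6.06% of all genes. Of those tested, 5 had log2 fold changes below 0 (53.2% of all genes) and 0 above 0, with a median of -0.60. Median length was 4897 bases for the lysyl oxidases and 4821 bases for propeptide removal, against 2814 bases over all genes tested. Genes of like length to Col6a2 (4958 bases) had a median log2 fold change of -0.29. The part of length in these lists was not tested. Loxl2 was at 6.96 ± 5.51 CPM with rhCYGB and 17.3 ± 3.85 CPM with vehicle, Loxl1 at 6.70 ± 2.16 CPM with rhCYGB and 10.2 ± 2.13 CPM with vehicle and Lox at 4.61 ± 0.713 CPM with rhCYGB and 5.89 ± 5.02 CPM with vehicle. The 3 vehicle values of Lox were 9.18, 0.113 and 8.37 CPM, and its log2 fold change was -0.92 without vehicle replicate 2 and 0.12 without vehicle replicate 1. Loxl2 was called by edgeR without rhCYGB replicate 1 (log2 fold change -2.06, adjusted p = 0.0414), where 10.5% of all genes were called lower.

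Matrix proteins that bind fibrils and receptors for collagen were listed as well. For fibril-binding proteins, of 14 listed, 13 were tested and 0 passed by edgeR, with 1 lower and 0 higher at an unadjusted p under 0.05, against 2.06% and 6.06% of all genes. Of those tested, 9 had log2 fold changes below 0 (53.2% of all genes) and 4 above 0, with a median of -0.38. Decorin (Dcn), a small proteoglycan on fibrils, was at 139 ± 77.0 CPM with rhCYGB and 249 ± 68.6 CPM with vehicle, biglycan (Bgn) at 191 ± 41.2 CPM with rhCYGB and 193 ± 28.6 CPM with vehicle and fibronectin (Fn1) at 662 ± 108 CPM with rhCYGB and 798 ± 56.1 CPM with vehicle. Tgfbi, at 42.9 ± 16.0 CPM with rhCYGB and 78.2 ± 10.9 CPM with vehicle, had the 1 unadjusted p under 0.05 (edgeR adjusted p = 0.523). Dcn was called by edgeR without rhCYGB replicate 1 (log2 fold change -1.35, adjusted p = 0.0434), where 10.5% of all genes were called lower. For receptors, of 12 listed, 12 were tested and 0 passed by edgeR, with 1 lower and 0 higher at an unadjusted p under 0.05, against 2.06% and 6.06% of all genes. Of those tested, 11 had log2 fold changes below 0 (53.2% of all genes) and 1 above 0, with a median of -0.67. The median length of the list was 4989 bases, against 2814 bases over all genes tested. Genes of like length to Col6a2 (4958 bases) had a median log2 fold change of -0.29. The part of length in this list was not tested. Itgb1, the beta chain shared by collagen-binding integrins, was at 198 ± 36.9 CPM with rhCYGB and 209.9 ± 15.6 CPM with vehicle, Antxr2 at 34.6 ± 7.9996 CPM with rhCYGB and 40.3 ± 1.76 CPM with vehicle and the receptor tyrosine kinase Ddr1 at 13.8 ± 6.15 CPM with rhCYGB and 24.6 ± 5.29 CPM with vehicle. Lair1, an inhibitory receptor of immune cells named after its value was seen, was at 6.09 ± 2.61 CPM with rhCYGB and 12.9 ± 1.27 CPM with vehicle. Without rhCYGB replicate 1 edgeR called Ddr1 (log2 fold change -1.26, adjusted p = 0.0239) and Lair1 (log2 fold change -1.42, adjusted p = 0.0257), with the same share of all genes.

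Enzymes that degrade collagen formed the last list. Of 7 listed, 6 were tested and 0 passed by edgeR, with 2 lower and 0 higher at an unadjusted p under 0.05, against 2.06% and 6.06% of all genes. Of those tested, 4 had log2 fold changes below 0 (53.2% of all genes) and 2 above 0, with a median of -0.55. Mmp13, the main collagenase of mice, was at 1.78 ± 1.13 CPM with rhCYGB and 6.60 ± 1.28 CPM with vehicle (log2 fold change -1.88, SE 0.54, edgeR adjusted p = 0.523), and was called without rhCYGB replicate 1 (log2 fold change -2.41, adjusted p = 0.0231), where 10.5% of all genes were called lower. Mmp9 was at 2.55 ± 1.40 CPM with rhCYGB and 5.76 ± 0.570 CPM with vehicle (edgeR adjusted p = 0.523). Both are named after their values were seen. Mmp14, a membrane-bound collagenase, was at 177 ± 84.8 CPM with rhCYGB and 112 ± 37.4 CPM with vehicle, Mmp2 at 13.4 ± 2.95 CPM with rhCYGB and 12.9 ± 4.197 CPM with vehicle and cathepsin K (Ctsk) at 17.8 ± 9.97 CPM with rhCYGB and 21.7 ± 17.03 CPM with vehicle.

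Markers of cells that make collagen were compared with it. Of 7 myofibroblast markers 6 had log2 fold changes below 0, and their summed level was 63.2, 113 and 44.1 CPM in rhCYGB replicates 1 to 3, against 109, 104 and 99.5 CPM in vehicle replicates 1 to 3. The sum was low in rhCYGB replicates 1 and 3 and highest of all in rhCYGB replicate 2, so the groups overlapped. By gene, 2 of the 7 were lower in all rhCYGB libraries than in all vehicle libraries, Timp1 and Pdgfrb, against 7.38% of all genes tested. For the rest the groups overlapped. Their log2 fold changes were -0.40 for Acta2, -0.24 for Tagln, -0.065 for Cnn1, -0.55 for Actg2 and 0.16 for Myl9. All 7 are named after their values were seen. Timp1, an inhibitor of matrix proteases, was at 7.21, 12.5 and 8.18 CPM with rhCYGB, against 19.1, 24.7 and 14.8 CPM with vehicle (log2 fold change -1.07, edgeR adjusted p = 0.523). Pdgfrb, a growth factor receptor of these cells, was at 21.5, 16.9 and 10.4 CPM with rhCYGB, against 28.9, 30.5 and 26.2 CPM with vehicle (log2 fold change -0.81, edgeR adjusted p = 0.523). Quiescent stellate cell markers (5 of 7 below 0) summed to 191 to 212 CPM with rhCYGB and 176 to 210.3 CPM with vehicle. That sum was carried by Ecm1, at 63.8, 122.6 and 152 CPM with rhCYGB, against 66.9, 66.8 and 70.2 CPM with vehicle (log2 fold change 0.73), named after its values were seen. The median marker of the list deviated from its 6-library mean by 0.24, 0.030 and -0.91 in rhCYGB replicates 1 to 3 and 0.48, 0.13 and 0.099 in vehicle replicates 1 to 3 on the log2 CPM scale, lowest in rhCYGB replicate 3 as for the collagens. Cygb, the mouse gene for cytoglobin and a member of that list, was at 19.4, 14.8 and 6.64 CPM with rhCYGB, against 31.3, 29.9 and 22.2 CPM with vehicle (log2 fold change -1.03, edgeR adjusted p = 0.523). Like the collagens, it was lowest in rhCYGB replicate 3. Portal fibroblast and mesothelial markers (7 of 8 tested above 0) summed to 36.9 to 69.5 CPM with rhCYGB and 40.1 to 46.5 CPM with vehicle, with Gli1 at 0 in some library. Vascular smooth muscle markers summed to 2.41 to 6.01 CPM with rhCYGB and 3.18 to 4.85 CPM with vehicle, with Synpo2 at 0 in some library. On TPM the myofibroblast sum was 25.3 to 72.6 TPM with rhCYGB and 111 to 176 TPM with vehicle. The portal fibroblast sum was 23.3 to 34.1 TPM with rhCYGB and 36.3 to 43.8 TPM with vehicle. Groups did not overlap for either sum, and TPM was lower in this way for 12.7% of all genes tested. The median log2 fold change of all genes was -0.51 on log2(TPM + 1), against -0.056 by edgeR. The part of these cells in the collagen values was not tested.

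Other cell types were covered by further lists. Bile duct markers (5 of 8 below 0) summed to 71.7 to 118 CPM with rhCYGB and 84.8 to 115 CPM with vehicle, and macrophage markers (4 of 7 below 0) to 1092 to 1898 CPM with rhCYGB and 1138 to 1987 CPM with vehicle. Endothelial markers (4 of 6 below 0) summed to 52.6 to 131 CPM with rhCYGB and 88.1 to 126 CPM with vehicle, lowest in rhCYGB replicate 3. Lymphocyte markers summed to 1.77 to 3.14 CPM with rhCYGB and 1.28 to 3.14 CPM with vehicle, with Ms4a1 at 0 in some library. Hepatocyte markers had log2 fold changes above 0 for 6 of 6, with sums of 118093 to 231593 CPM with rhCYGB and 81594 to 139612 CPM with vehicle. The groups overlapped in summed CPM for each of these lists, and their part in the collagen values was not tested. On TPM the bile duct sum was 63.7 to 79.7 TPM with rhCYGB and 83.9 to 170.4 TPM with vehicle. The macrophage sum was 783 to 1639 TPM with rhCYGB and 2018 to 3150.1 TPM with vehicle. Both were lower in all rhCYGB libraries than in all vehicle libraries, as were 12.7% of all genes, whose median on log2(TPM + 1) was -0.51. Lyz2 made up most of the macrophage sum, at 539 to 1151 TPM with rhCYGB and 1582 to 2566 TPM with vehicle. By edgeR its log2 fold change was -0.35, and that of Marco in the same list was 0.94. Both genes are named after their values were seen.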

How the data were processed

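Tables of genes and of transcripts, as deposited by the authors, gave estimated counts and FPKM for 6 livers, 3 per group. Per the labels' protocols, libraries were made with a stranded mRNA kit and random primers and sequenced from both ends. Per the submitters' processing notes, FastQC 0.11.7, HISAT2 2.1.0 and StringTie 1.3.4d were used with mm10. Annotation release and strand setting: not given in the sources used here. The deposited estimated counts were whole numbers that matched FPKM times transcript length times 1 constant per library, to within 1% for every transcript of at least 100 counts, so they carry the assembler's division of reads among isoforms, and counting intervals do not apply. The labels name separate mice.

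In R 4.3.3, edgeR 4.0.16 (filterByExpr, TMM, robust quasi-likelihood test, Benjamini-Hochberg adjustment, threshold 0.05) was run on all genes. Alternatives used DESeq2 1.42.0, limma 3.58.1, TPM rescaled from FPKM, other filters and scalings, and leaving out libraries. Ratios were tested by exact permutation in scipy 1.17.1. Deviations used a prior count of 2, and length trends a loess span of 0.5. The 10 genes and all lists were chosen with earlier results of these data known. Named genes are the 10, the 3 most abundant of each pathway list, Cygb, and the 5 closest in profile to each of 2 collagen groups, of which 1 is not reported here. Genes with values outside this rule are said to be named after their values were seen.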

Additional observations from a re-analysis of the deposited data

How the results depend on the processing

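Over 18 alternative settings, all 10 collagens kept log2 fold changes below 0 in each gene-level fit. The count of genes past the threshold, 0 by edgeR, was 62 by DESeq2 and 4323 by limma-voom with sample quality weights, which called 1 collagen. Leaving out 1 library at a time gave 0 to 3391 genes and 0 to 958 transcripts, the higher counts without rhCYGB replicate 1. The median of the 10, -0.93 by edgeR, was -1.46 on log2(TPM + 1) and -1.77 on log2(TPM + 0.1). On like-length values groups were apart for 1 collagen in place of 9. For this count of groups apart, like-length values, TPM and leaving out libraries were added after seeing the data. The gene tests on TPM and without single libraries were planned. On log2(TPM + 1) the sign was the opposite for Col18a1 at -0.20, P4hb at -0.71, Bmp1 at -0.28, Mmp14 at -0.15 and Mmp2 at -0.58. On log2(TPM + 0.1) the sign was the opposite for Col18a1 at -0.21, P4hb at -0.71, Bmp1 at -0.29, Mmp14 at -0.15 and Mmp2 at -0.66. With upper-quartile factors the sign was the opposite for P4hb at -0.11 and Mmp2 at -0.083. Without rhCYGB replicates 2 and 3 together, where the lone rhCYGB library is assumed to vary like the vehicle ones, the sign was the opposite for P4hb at -0.030, Ppib at -0.39, Colgalt1 at 0.057, Itgb1 at 0.17, Antxr2 at 0.11, Mmp14 at -0.37 and Mmp2 at -0.29. By limma-voom with sample quality weights the sign was the opposite for Pcolce at 0.17, Bgn at 0.20 and Lox at 1.29. With the length trend removed the sign was the opposite for Fn1 at 0.18, Bgn at 0.090, Lox at 0.16, Itgb1 at 0.25 and Antxr2 at 0.070. With DESeq2 size factors the sign was the opposite for Bgn at 0.015. By DESeq2 the sign was the opposite for Bgn at 0.0046. By limma-voom without weights the sign was the opposite for Lox at 1.08. For ratios on log2(FPKM + 1) the sign was the opposite for Col5a2 over Col5a1 at -0.040, Col6a2 over Col6a1 at 0.039 and Col6a3 over Col6a1 at 0.043. For ratios of counts the sign was the opposite for Col5a1 over Col1a1 at -0.099 and Col12a1 over Col1a1 at -0.062. Counts follow FPKM times length. Up to rounding, these ratios thus differ from the tested ones by a fixed length factor and by the added 0.1 FPKM. Leaving out 1 library at a time gave ranges that cross 0, of -0.067 to 0.089 for P4hb, -0.55 to 0.11 for Pcolce, -0.15 to 0.14 for Bgn, -0.92 to 0.12 for Lox, -0.23 to 0.034 for Itgb1, -0.77 to 0.42 for Ctsk, -0.13 to 0.36 for Mmp2, -0.15 to 0.27 for Col5a1 over Col1a1, -0.088 to 0.088 for Col6a2 over Col6a1 and -0.55 to 0.044 for Col6a3 over Col6a1. The cause was not tested for any of these. No paired analysis was possible because the replicate numbers follow the order of deposition and the labels tie no animals across groups. Low counts limit Col12a1 most.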
